A study of Mus musculus with 2 samples.

Results

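The neural plate patterning transcription factors Sox1, Sox2, Sox3, Pax6, Otx2, Six3, Hesx1, En1, Gbx2 and Pax2 were followed in mouse embryos at early somite stages, in cells sorted as left–right organizer (LRO) and in the remaining cells. The 10 genes were chosen by symbol, from a table of 17586 gene symbols, and all 10 had reads in at least 1 library. LRO cells were the GFP-positive cells and non-LRO cells the GFP-negative cells of FOXJ1-EGFP embryos of the strain C57BL/6 x 129 SvEv with 0 to 4 somites. Every embryo in both groups carried the reporter, in which the FOXJ1 promoter drives EGFP, so a cell entered the LRO group by the activity of that promoter, after a micro-dissection whose borders are not given in the sources used here. Each group was 1 library made from cells pooled over several embryos, no embryo pool was divided between the groups, and by the study's methods the LRO pool held far fewer cells and much less RNA. The differences therefore lack a replicate check, they describe these libraries, and no p-value was calculated.

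The neural plate is the sheet of ectoderm that becomes the brain and spinal cord. SoxB1 factors mark its progenitor cells, and homeodomain and paired-domain factors divide it from front to back into forebrain, midbrain and hindbrain. At the border of midbrain and hindbrain, Otx2 on the anterior side and Gbx2 on the posterior side restrict each other, and Wnt1, Fgf8, En1 and Pax2 are active around that border. The LRO itself is a ciliated pit of mesendoderm at the posterior end of the notochord and not a part of the neural plate. In pooled RNA, fewer cells of a type and less RNA per cell cannot be told apart.

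The LRO library had 16672852 reads assigned to genes and the non-LRO library 13418798, with 15304 and 16730 genes at 1 read or more. Rn45s, the ribosomal RNA precursor, took 23.9% of the LRO reads and 17.6% of the non-LRO reads. All 10 node and LRO markers were higher in the LRO library (summed level 111 RPKM, against 20.3 RPKM in the non-LRO library), among them Foxj1 with 194 reads against 4, while Noto and Pifo had 0 reads in the non-LRO library. RNA of markers of other cell types also differed between the pools, which does not show which cells held it. Neural crest markers were higher for 5 of 9 genes (64.1 RPKM in LRO cells and 22.3 RPKM in non-LRO cells) and cardiac mesoderm markers for 4 of 6 genes (81.8 and 31.0 RPKM). Erythroid markers were lower for 3 of 3 genes (0.999 RPKM in LRO cells and 673 RPKM in non-LRO cells), and extraembryonic endoderm markers for 5 of 6 genes (17.2 and 78.2 RPKM), with Afp, Apoa2 and Apoc1 at 0 LRO reads. Caudal epiblast markers had 1 gene higher and 2 lower of 7 (104 and 101 RPKM). The higher gene was T, which is also counted among the node and LRO markers. T alone had 55.5 RPKM in LRO cells and 16.4 RPKM in non-LRO cells, so the similar sums of this list depend on it. The epiblast marker Utf1 also had 0 LRO reads. Of all marker genes, T (3441 reads) and Sox9 (2848 reads) had the most reads in the LRO library, and Hbb-bh1 (9883 reads) and Dnmt3b (3452 reads) in the non-LRO library. The part of these differences in the values below was not tested.

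Levels are given as RPKM, the reads of a transcript divided by its length and by the library total, summed over the transcripts of a gene. For each gene the LRO to non-LRO ratio of reads was scaled to the library totals and given with an exact 95% interval, which covers counting error only, and amplified reads are not independent molecules. Called genes are those with the whole interval above 2 (higher) or below 0.5 (lower). Of the 10 factors En1 and Pax2 were called higher, Pax6 was called lower and the other 7 were called neither. Across all 17586 genes 3.97% were called higher and 12.3% lower, and the higher genes made up 24.4% of all called genes, a share that became 41.9% when the libraries were scaled with TMM factors. Well-read genes, those with 50 reads or more on both sides, had a median log2 ratio of -0.31. Relative to that shift the median was 0.64 over the 10 factors and -0.12 over all genes.

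**Figure D1:**
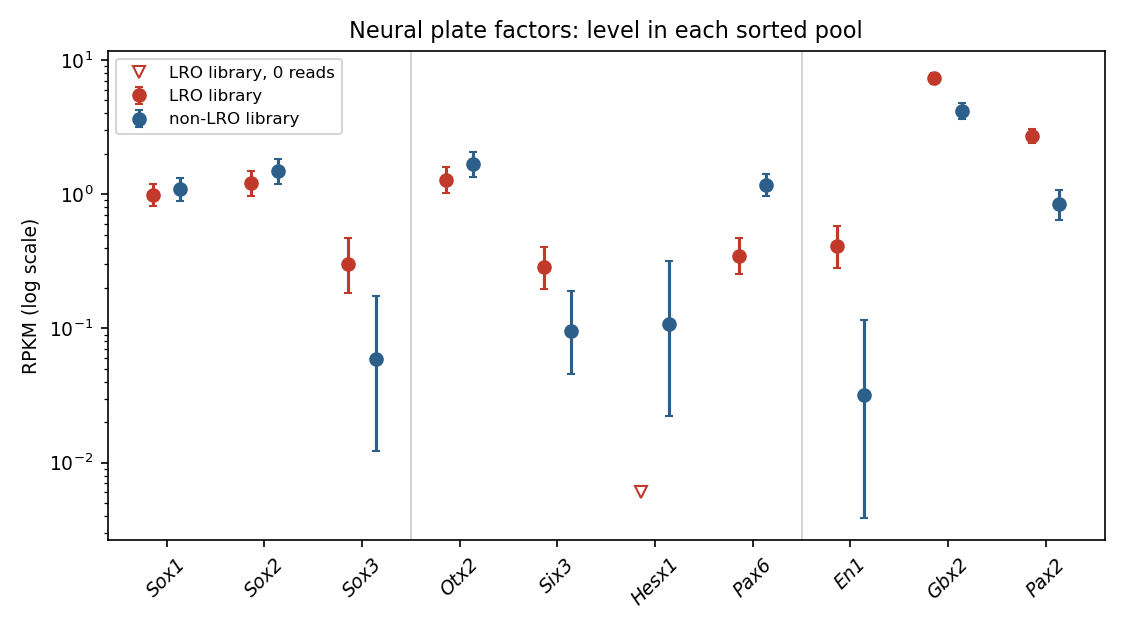
Level of each factor in RPKM on a log axis, with the LRO library in red and the non-LRO library in blue, and bars for the 95% counting interval. Vertical lines separate the SoxB1, anterior and midbrain–hindbrain factors, and the open triangle marks 0 LRO reads for Hesx1. Gbx2 was the highest in both libraries (7.32 RPKM in LRO cells and 4.18 RPKM in non-LRO cells), and among the genes with reads in both libraries the intervals overlap for Sox1, Sox2 and Otx2.

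The factors were low to moderate in level. Together they reached 14.9 RPKM in LRO cells and 10.7 RPKM in non-LRO cells, from 1141 and 688 reads. Gbx2 and Pax2 supplied 41.3% and 21.8% of those reads in the LRO library, against 31.5% and 9.01% in the non-LRO library. In LRO cells the order by RPKM was Gbx2, Pax2, Otx2, Sox2, Sox1, En1, Pax6, Sox3, Six3 and Hesx1. Among neighbours in that order, Gbx2 differed from Pax2, Pax2 from Otx2 and Sox1 from En1 by more than counting error, and no other pair with reads did. In non-LRO cells it was Gbx2, Otx2, Sox2, Pax6, Sox1, Pax2, Hesx1, Six3, Sox3 and En1, with Gbx2 separated from Otx2 and Pax2 from Hesx1. Gbx2 lay above 78.7% of all genes in LRO cells and 63.7% in non-LRO cells. En1 lay above 35% of genes in LRO cells and 8.80% in non-LRO cells.

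Sox1, Sox2 and Sox3 are the SoxB1 proteins, which keep neural progenitors undifferentiated, and Sox2 and Sox3 are also active in the epiblast. Sox1, the most neural-restricted of them, had 121 reads in LRO cells and 107 in non-LRO cells (0.99 and 1.09 RPKM), a ratio of 0.912 (95% interval 0.697 to 1.19). Sox2 had 90 reads in each library (1.21 RPKM in LRO cells and 1.5 RPKM in non-LRO cells), a ratio of 0.806 (0.595 to 1.09). Both intervals included 1 and stayed between 0.5 and 2. By counting error alone, the LRO level of Sox1 and of Sox2 was thus within 2-fold of the non-LRO level in these libraries. The Sox1 ratio lay on the other side of 1 with TMM factors (1.12).

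Sox3, on chromosome X, had 19 reads in LRO cells and 3 in non-LRO cells (0.304 and 0.0595 RPKM). Its ratio was 5.11, but the interval ran between 1.5 and 26.9 and the gene was not called. As a group the 3 SoxB1 genes had 230 reads in LRO cells and 200 in non-LRO cells, a ratio of 0.927 (0.764 to 1.13).

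All 3 SoxB1 genes are intronless and none had a read across an exon junction. Sox1 lies inside the span of the noncoding gene Gm5607, with 47 reads in LRO cells and 70 in non-LRO cells, and Sox2 lies inside that of Sox2ot, with 1 and 19 reads. The library kit does not keep strand, and both hosts are annotated on the strand of the factor, so reads over the shared bases cannot be told apart by direction. Sox2ot was called lower, with a ratio of 0.0424 (0.0010 to 0.267), while the Sox2 interval stayed above 0.5.

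The ratios of the anterior factors lay on both sides of 1. Otx2, needed for forebrain and midbrain and also active in anterior mesendoderm, had 84 reads in LRO cells and 89 in non-LRO cells (1.28 and 1.67 RPKM), a ratio of 0.761 (0.558 to 1.04). Six3, a forebrain and eye field factor, had 32 reads in LRO cells and 9 in non-LRO cells (0.289 and 0.0950 RPKM), a ratio of 2.87 (1.34 to 6.83). Hesx1, a repressor of the anterior forebrain and pituitary, had 0 reads in LRO cells and 3 in non-LRO cells. For Hesx1, 0 of 30277870 reads allows a share of up to 9.91e-06%, and both libraries were at or under the floor of 3 reads. No fold against the floor was calculated, and the Hesx1 log2 ratio used in the medians rests on the 1 read added to each library. None of these 3 genes was called.

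Pax6, a paired-domain factor of the forebrain, eye, hindbrain and spinal cord, was the only factor called lower. It had 43 reads in LRO cells and 106 in non-LRO cells (0.349 and 1.17 RPKM) and was 3.06-fold lower (2.13 to 4.47). Reads that crossed exon junctions, which need a spliced transcript, were 9.74 for Pax6 in LRO cells and 33.0 in non-LRO cells, a ratio of 0.244 (0.107 to 0.507). With TMM factors the Pax6 ratio was 0.402 (0.275 to 0.578), which was no longer called. Together the 4 anterior factors had 159 reads in LRO cells and 207 in non-LRO cells, a ratio of 0.619 (0.5 to 0.765). Pax6 supplied 43 of those LRO reads and 106 of those non-LRO reads, and no other anterior factor was called. The summed ratio therefore depends largely on Pax6. Prechordal and anterior mesendoderm markers were lower for 2 of 6 genes and higher for 0 (9.03 RPKM in LRO cells and 22.3 RPKM in non-LRO cells). Cer1, 1 of the lower genes, alone had 1.88 and 11.2 RPKM. The genes called neither lay on both sides of 1, with ratios of 1.61 for Gsc (4 and 2 reads), 2.23 for Fzd5, 0.820 for Dkk1 and 0.376 for Hhex. The part of these markers in the anterior values was not tested.

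**Figure D2:**
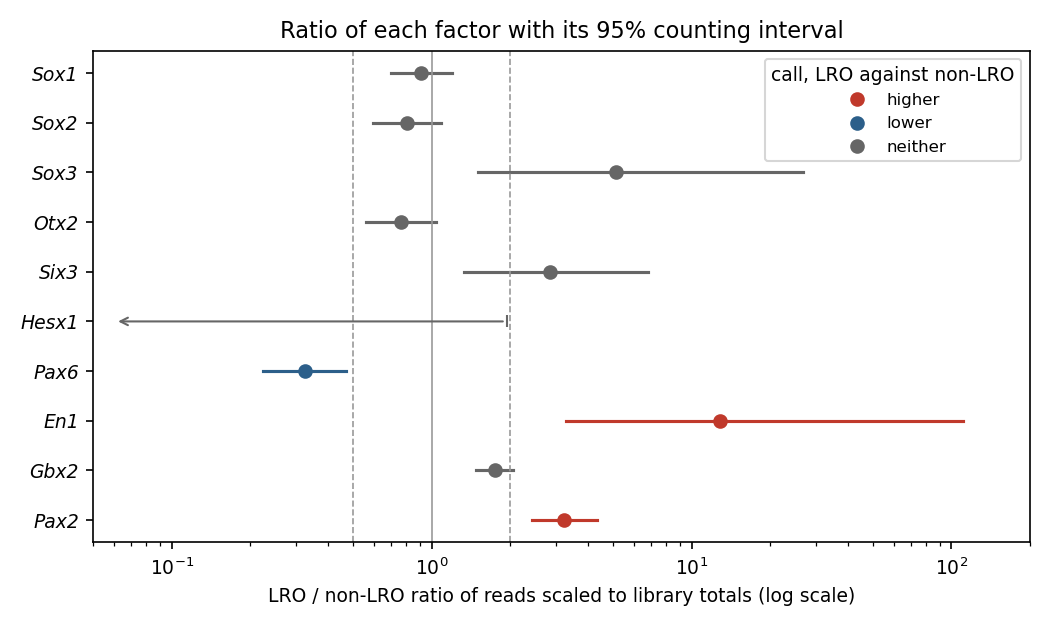
LRO to non-LRO ratio of each factor on a log axis, with points for the ratio and lines for the 95% counting interval, the solid vertical line at 1 and dashed lines at 0.5 and 2. The intervals of En1 (3.29 to 111) and Pax2 (2.44 to 4.35) lie above 2 and that of Pax6 (0.224 to 0.470) below 0.5, and the arrow marks the upper bound of 1.95 for Hesx1, which had 0 LRO reads.

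The midbrain–hindbrain factors had the highest summed ratio of the 3 roles. En1, a homeodomain factor of the midbrain–hindbrain border that is later also made in ventral limb ectoderm and somite derivatives, had 32 reads in LRO cells and 2 in non-LRO cells (0.414 and 0.0321 RPKM). It was 12.9-fold higher (3.29 to 111), and the width of the interval follows from the 2 non-LRO reads. En1 lies on chromosome 1 (122499064 to 122504569 in the positions of the deposited table). Pax2, a paired-domain factor of the midbrain–hindbrain border, optic stalk, otic placode and intermediate mesoderm, had 249 reads in LRO cells and 62 in non-LRO cells (2.72 and 0.839 RPKM) and was 3.24-fold higher (2.44 to 4.35). Pax2 lies on chromosome 19 (44831884 to 44912360 in the same positions).

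Junction reads differed between these genes. Pax2 had 74 junction reads in LRO cells and 12 in non-LRO cells, 29.7% and 19.4% of its reads, with a junction ratio of 4.97 (2.68 to 10.1). En1 has an intron but had 0 junction reads in either library. Across all genes 12.7% of LRO reads and 15.6% of non-LRO reads crossed a junction. Six3, which also has an intron, had 0 junction reads in both libraries as well.

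Gbx2, which sets the anterior hindbrain and is also active in the posterior embryo at this stage, had 471 reads in LRO cells and 217 in non-LRO cells. Its ratio of 1.75 (1.49 to 2.06) lay above 1 but did not pass the 2-fold bound. Of its reads, 8 in LRO cells and 3 in non-LRO cells crossed a junction. As a group the 3 midbrain–hindbrain factors had 752 reads in LRO cells and 281 in non-LRO cells, a ratio of 2.16 (1.88 to 2.48). Without Gbx2 the remaining pair had 281 and 64 reads, a ratio of 3.54 (2.69 to 4.72). Markers of intermediate mesoderm, where Pax2 is also active, were higher for 0 of 4 genes and lower for 1 (11.4 RPKM in LRO cells and 15.9 RPKM in non-LRO cells). That lower gene, Lhx1, is also among the lower genes counted for prechordal and anterior mesendoderm. Osr1 alone had 9.69 RPKM in LRO cells and 10.5 RPKM in non-LRO cells, most of each sum. Pax8 had 13 and 5 reads, a ratio of 2.10 (0.701 to 7.51), and Gata3 a ratio of 0.599. The part of these markers in the Pax2 value was not tested.

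The sequences before the annotated starts of En1, the factor with the highest ratio, and of Pax6, the factor called lower, are shown 5′ to 3′ from RefSeq (GRCm38.p6). The En1 window is chr1:120602237-120602417 on the plus strand, 181 bases long. It ends where an annotated exon begins and stops short of the En1 start at 120602487. The Pax6 window is chr2:105668646-105668895 on the plus strand, the 250 bases before the first of its annotated starts. Capitals mark CCAAT, or its reverse complement ATTGG.
En1: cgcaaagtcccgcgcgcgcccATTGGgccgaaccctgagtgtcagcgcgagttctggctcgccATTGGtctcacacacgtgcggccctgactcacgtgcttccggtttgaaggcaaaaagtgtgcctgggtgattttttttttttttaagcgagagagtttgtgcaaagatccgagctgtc
Pax6: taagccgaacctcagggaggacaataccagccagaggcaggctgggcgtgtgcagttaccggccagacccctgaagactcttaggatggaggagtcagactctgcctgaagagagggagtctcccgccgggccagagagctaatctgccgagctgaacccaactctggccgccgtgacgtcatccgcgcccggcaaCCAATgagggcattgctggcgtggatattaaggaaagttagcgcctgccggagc
The En1 window held CCAAT on the reverse strand at 187 and 229 bases before the start, and the Pax6 window held it once, at 54 bases. Each window had 15 CpG sites, in 181 bases for En1 and 250 for Pax6, against a median of 6 over all RefSeq windows of 250 bases. CCAAT occurred on either strand in 33.8% of 32851 such windows. The searched words TATAAA (12.4% of windows), TAATCC (6.25%), TAATTA (4.84%), ACAAAG (16.5%) and GTAAACA (3.17%) were in neither window. A match describes these letters only.

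Pax6 and Otx2 have several annotated starts, and the deposited estimates divided their reads unequally among them. For Pax6, the first start had 0.00085 estimated reads in LRO cells and 38.7 in non-LRO cells, at least 16.1-fold lower against the floor of 3 reads per library. The second start, 6848 bases downstream, had 10.8 reads in LRO cells and 48.7 in non-LRO cells, a ratio of 0.181 (0.0849 to 0.353). The Pax6 start 7233 bases downstream went the other way, with 32.2 reads in LRO cells and 7.69 in non-LRO cells, a ratio of 3.22 (1.46 to 8.10). That start held 74.9% of the Pax6 reads in LRO cells and 7.27% in non-LRO cells, so by these estimates the lower Pax6 total was not shared by all of its annotated starts. The farthest start, 13567 bases downstream, had 0.00018 reads in LRO cells and 10.7 in non-LRO cells, at least 4.55-fold lower.

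Each Pax6 start has 1 transcript with and 1 without an exon of 42 bases, exon 5a, which lengthens the paired domain and changes its DNA binding (GRCm38 chr2:105684751-105684792). Transcripts with the exon were estimated at 33.5 reads, 77.9% of the Pax6 total, in LRO cells and at 61.1 reads, 57.8%, in non-LRO cells. These divisions are estimates from transcripts that share most of their bases and rest on few junction reads, so no interval was put on the shares, and the intervals by start cover counting error only. The 3′ end of Pax6 also overlaps Elp4 on the opposite strand by 1092 bases. Elp4, named after its values were seen, had 243 reads in LRO cells and 242 in non-LRO cells.

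The estimates for Otx2 also differed between starts. They rest almost wholly on how reads of shared bases were divided, since Otx2 had 1.0 junction read in LRO cells and 3.01 in non-LRO cells, and the intervals below do not cover that division. Its second start, 2535 bases downstream of the first, had 69.6 estimated reads in LRO cells and 50.9 in non-LRO cells, a ratio of 1.11 (0.760 to 1.62). Its last start, 4772 bases downstream, had 11.1 reads in LRO cells and 36.1 in non-LRO cells, a ratio of 0.246 (0.113 to 0.495). By these estimates the second start held 82.8% of the Otx2 reads in LRO cells and 57.2% in non-LRO cells, while the gene total was not called. The first start had 3.30 reads in LRO cells and 2.0 in non-LRO cells.

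**Figure D3:**
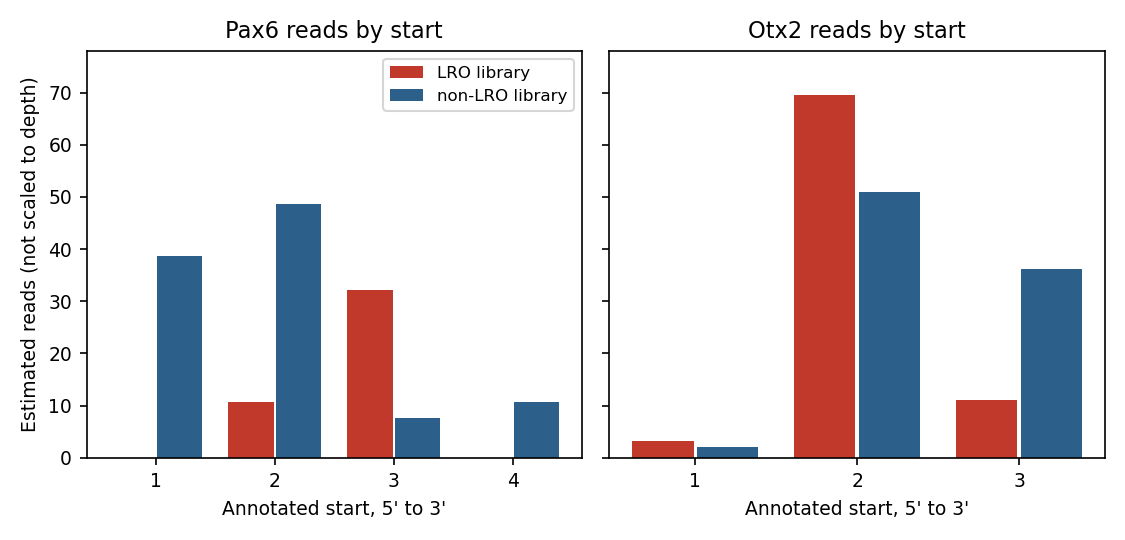
Estimated reads by annotated start of Pax6 (left) and Otx2 (right), numbered 5′ to 3′, with LRO bars in red beside non-LRO bars in blue, and reads not scaled to depth. The LRO reads of Pax6 stand mainly at start 3 (32.2 reads) and the non-LRO reads at starts 1 and 2 (38.7 and 48.7 reads), and most LRO reads of Otx2 stand at start 2 (69.6 reads).

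Other genes of the same regions were read to place the factors. Of 21 other forebrain and midbrain factors 10 were called higher, 0 lower and 11 neither, with a median log2 ratio of 1.99 relative to the shift (1.77 with genes at 0 reads set to the floor). Barhl2, a homeodomain factor of the diencephalon, had 179 reads in LRO cells and 2 in non-LRO cells, a ratio of 72.1 (19.7 to 600). Barhl1 had 93 reads in LRO cells and 6 in non-LRO cells and was 12.5-fold higher (5.53 to 34.9). The Iroquois factors, which pattern the neural plate and several other tissues including the heart, were higher for all 4 listed members. Irx5 had 737 reads in LRO cells and 78 in non-LRO cells and was 7.62-fold higher (6.03 to 9.75), and Irx1 had 1088 and 147 reads and was 5.97-fold higher (5.02 to 7.14). Further higher genes, named after their values were seen, included Rax, Lhx2, Vax1, Irx2 and Irx3. Rax, an eye field factor, had 24 LRO reads and 0 non-LRO reads, at least 6.45-fold higher against the floor. Among the genes of this list called neither, Nkx2-1, of the ventral forebrain, had 6 reads in LRO cells and 17 in non-LRO cells, and Otx1, the paralogue of Otx2, had 33 and 45 reads.

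Of 12 partners of the midbrain–hindbrain border and hindbrain, 2 were called higher, 1 lower and 9 neither, with a median relative to the shift of 0.050 on the log2 scale (0.11 with genes at 0 reads set to the floor). Wnt1, the signal of the midbrain side of the border, had 42 reads in LRO cells and 2 in non-LRO cells and was 16.9-fold higher (4.40 to 144). En2, the paralogue of En1, had 12 reads in LRO cells and 0 in non-LRO cells, at least 3.22-fold higher. Fgf15, an FGF of the neural tube, had 27 reads in LRO cells and 199 in non-LRO cells and was 9.14-fold lower (6.10 to 14.2). Fgf8, the signal of the hindbrain side, which is also made in the caudal embryo and the heart field, was not called, with 128 reads in LRO cells and 139 in non-LRO cells, a ratio of 0.742 (0.579 to 0.951). The genes around the border therefore did not move as 1 block. Of 9 neural crest markers, 5 were called higher, the direction of En1, Pax2 and Wnt1, and 4 neither. The part of neural crest in these values was not tested.

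Among 25 other neural progenitor factors 4 were called higher, 2 lower and 19 neither, with a median of 0.65 relative to the shift. Sox11, a SoxC factor of neurons and many other embryonic cells, had 6020 reads in LRO cells and 2114 in non-LRO cells and was 2.30-fold higher (2.18 to 2.41). The other higher genes were Foxd4, a factor of early neural ectoderm, with 72 reads in LRO cells and 16 in non-LRO cells, Nkx6-1, of the ventral neural tube, with 48 and 8 reads, and Pax7, of the dorsal neural tube and neural crest, with 37 and 6 reads. Nkx1-2, of the caudal neural plate and the neuromesodermal progenitors, had 899 reads in LRO cells and 1734 in non-LRO cells and was 2.39-fold lower (2.21 to 2.60). Nkx2-2, of the ventral neural tube, had 0 reads in LRO cells and 8 in non-LRO cells, at least 3.31-fold lower. With TMM factors neither of these genes was called lower.

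Of 7 structural and adhesion genes of neural cells 1 was called higher and 2 lower, with a median of 0.59 relative to the shift. Tubb3, a neuronal tubulin, had 246 reads in LRO cells and 72 in non-LRO cells and was 2.75-fold higher (2.11 to 3.63). Fabp7, a fatty acid binding protein of radial glia, had 43 reads in LRO cells and 110 in non-LRO cells and was 3.17-fold lower (2.21 to 4.63). Crabp2, a retinoic acid binding protein, had 345 and 677 reads and was 2.43-fold lower (2.14 to 2.78). With TMM factors Fabp7 and Crabp2 were not called.

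**Figure D4:**
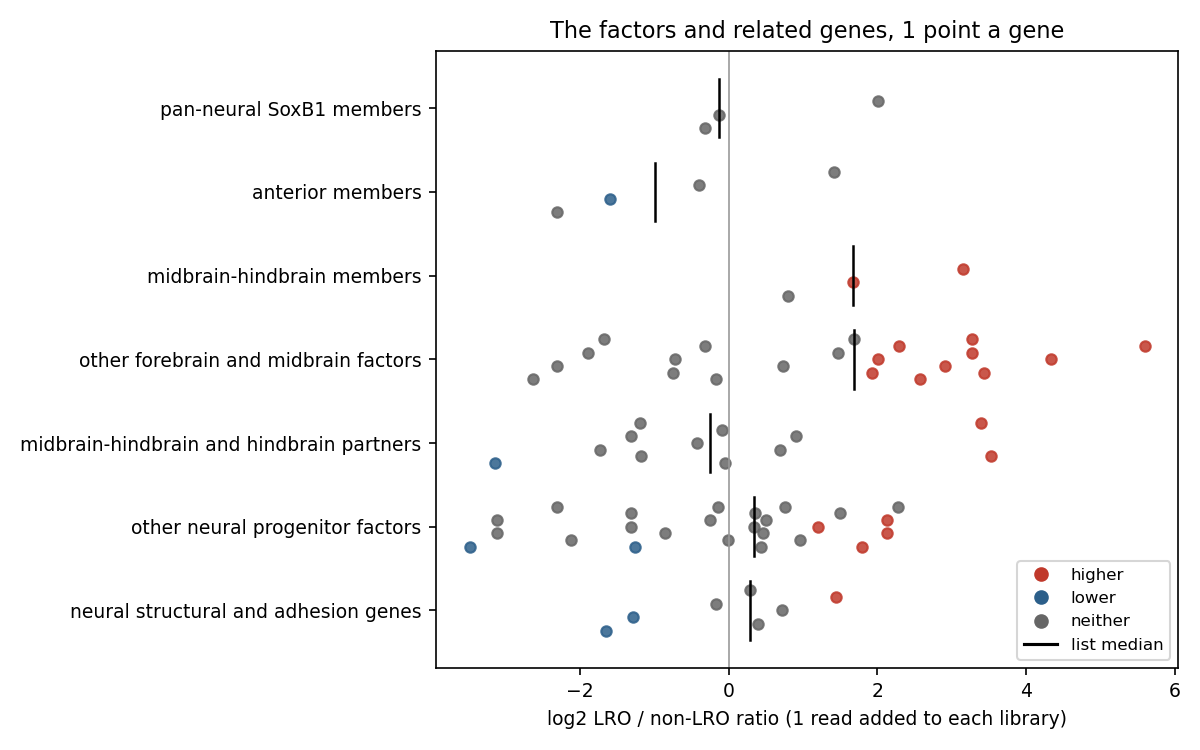
Log2 LRO to non-LRO ratio (1 read added to each library) of the 10 factors by role and of 65 related genes in 4 lists, 1 point a gene, coloured red when called higher, blue when called lower and grey otherwise, with a black line at each list's median. The medians, not corrected for the shift, were 1.69 for other forebrain and midbrain factors and -0.26 for midbrain–hindbrain and hindbrain partners. They were 1.68 for the midbrain–hindbrain factors, -0.99 for the anterior factors and -0.14 for the SoxB1 factors. The anterior median depends on Hesx1, which had 0 LRO reads. Relative to the shift that median was -0.69, and -0.046 with genes at 0 reads set to the floor.

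The gene nearest to each factor in level was found among the 65 related genes, by the distance of log2 (RPKM + 0.1) over the 2 libraries, as a description of 2 points each. Wnt1 was nearest to En1 (distance 0.416, 0.585 RPKM in LRO cells and 0.0346 RPKM in non-LRO cells) and Irx2 to Pax2 (distance 0.226, 2.99 and 0.728 RPKM). With 1 RPKM added instead of 0.1, Rax and not Wnt1 was nearest to En1. Sox4 was nearest to Gbx2 and Otx1 to Pax6. For the anterior factors Fgf17 was nearest to Otx2, Lhx5 to Six3 and Neurog2 to Hesx1. For the SoxB1 factors these were Nkx2-9 for Sox1, Pax3 for Sox2 and Pax7 for Sox3. Distances ran between 0.0191 and 0.776, the largest being that of Pax6 and Otx1.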

How the data were processed

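RNA was measured in 2 libraries, 1 of GFP-positive LRO cells and 1 of GFP-negative non-LRO cells. Per the labels, total RNA was converted with an amplifying cDNA kit and a transposase library kit. The authors used TopHat for alignment and Partek Genomics Suite 6.6 to quantify each RefSeq transcript. Estimated counts, as deposited, divide reads shared by transcripts of a gene and can be fractions. Some genes with 1 transcript had fractions too, such as Six3 with 32.2 LRO reads and 8.54 non-LRO reads before rounding. RPKM values, as deposited, scale those reads to transcript length in bases and to the library total, and the junction RPKM, another deposited unit, does the same for reads across exon junctions. The table held 27606 transcripts. The 2 columns of incompatible reads, and the columns of the authors' own comparison (chi-square values and p-values of differential expression and alternative splicing), were not used. The non-LRO column names GFP-negative cells. The LRO column carries no label and was assigned as the only other library of the table, which the study lists under GFP-positive cells. The labels name mm10, but transcript ends on chromosome 1 reach 197002910, so table positions belong to an older build and were not converted.

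Reads were summed per symbol and rounded. Library totals of 30277870 (LRO) and 24407299 (non-LRO) were recovered from reads, length and RPKM. Ratios have exact conditional binomial (Clopper-Pearson) 95% intervals, calculated with scipy 1.17.1. The intervals were tested on simulated independent counts, the model they assume, so that test does not cover amplified reads. Log2 ratios add 1 read. Genes at 0 were set against a floor of 3 reads per library, and the fold from that floor is not a bound on the difference. Junction reads are junction RPKM times length and total, and were whole within 0.02 for 80.7% (LRO) and 79.7% (non-LRO) of values of single-transcript genes. The table's Otx2 and Pax6 starts were compared with RefSeq starts by distance from the gene's first start. Pax6 starts 2 and 3 and Otx2 start 3 had no RefSeq start at an equal distance, so no window was taken for them. The list genes Pou3f3 and Neurog1 were not analysed here, and some list genes are not reported by name.

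The 10 factors and all lists were chosen with earlier results of these data known. The text names all 10 factors, up to 4 called genes per direction of each list, the nearest gene of each factor, and markers at 0 reads or with the most reads. Genes called neither within lists, Foxj1, Lhx1, Cer1, Rn45s and overlapping genes were named after their values were seen. Alternatives tried were scaling by TMM factors (edgeR 4.0.16), by assigned reads, by the median ratio and by totals without Rn45s and Lars2, fold bounds of 1.5 and 4, a 99% interval, a minimum of 50 reads, reads divided by 10, the LRO library thinned, protein-coding or longest transcripts only, and other pseudocounts. edgeR was used for its TMM factors only.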

Additional observations from a re-analysis of the deposited data

How the results depend on the processing

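No paired analysis was possible because there was only 1 library a group. En1 and Pax2 were called higher under all 5 scalings tried. With TMM factors and with median ratio scaling, the counts called lower were 0 for the 10 factors, 0 for neural progenitor factors and 0 for structural genes, and the summed midbrain–hindbrain ratio passed the bound (2.65 and 2.67). The median ratio gave 1056 genes higher and 1443 lower of all genes, and TMM factors 1048 and 1455. Without Rn45s and Lars2 1 progenitor factor was lower. A bound of 1.5 added Sox3 to the factors called higher and the summed midbrain–hindbrain ratio (2.16), and gave 2 border partners lower, 2 structural genes higher and 1242 genes higher and 3872 lower of all. A bound of 4 left 0 factors higher and 0 lower, 5 forebrain factors and 1 border partner higher, 0 progenitor factors and 0 structural genes in either direction, and 246 and 680 of all genes. A 99% interval left 0 factors lower, 1 border partner higher, 1 progenitor factor higher and 1 lower, and 0 structural genes higher and 1 lower. A minimum of 50 reads removed En1, leaving 1 factor and 0 border partners higher, 1 progenitor factor lower, and 1343 of all genes lower. With reads divided by 10, which carries a wider counting error, 0 factors were higher and 0 lower, 4 forebrain factors and 0 border partners were higher, 0 progenitor and 0 structural genes were called, and 155 and 293 of all genes. Thinning left 1 progenitor factor lower. With the longest transcript of each gene only, 0 factors were lower and the Pax6 ratio reversed to 5.04 (1.74 to 19.9), because that transcript is of the start with most LRO reads. Without Gbx2 the summed midbrain–hindbrain ratio was 3.54. With a pseudocount of 1 RPKM, 9 of 10 nearest genes were kept, and that of En1 changed from Wnt1 to Rax. With 2 or 3 non-LRO reads, depth limits the ratios of En1, Sox3 and Hesx1.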
